A study of Mus musculus with 15 samples.

Results

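The 47 listed genes encode the machinery that copies DNA in S phase, from the loading of replication origins to the supply of nucleotides and the copying of chromatin. They were set as a list of gene names, with earlier results of these data known. Every probe set annotated to 1 of them alone was read on all 15 arrays, and 1 probe set shared with another gene was not used. Of the 47, 46 had a probe set named to them alone, 102 probe sets in all, and 45 passed the filter on low signals, of 18193 named genes and 13160 tested genes in the whole data set. No probe set was named to Chaf1a alone. Tyms, thymidylate synthase, did not pass the filter: its brightest probe set averaged 186. Of the 45 tested genes, 38 were at or above the array median on all 15 arrays. The other 7 were below it on at least 1 array, and Cdc6 reached it on 7, the fewest.

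RNA from murine AM-14 B cells was hybridised to Affymetrix arrays, 3 for each treatment. AM-14 is a transgenic line known for a B cell receptor of rheumatoid factor specificity, which binds the constant part of certain IgG antibodies. Cells were treated with F(ab')2 goat anti-mouse IgM, which cross-links the receptor, with the phosphorothioate oligonucleotide CpG 1826, a ligand of the DNA sensor Tlr9, with PL2-3, given as a chromatin immune complex, or with anti-IgM and CpG together, and the last group was kept in media alone. The titles name both agents for the anti-IgM+CpG group although its treatment field reads none. No dose, time, mouse strain or age is stated in the labels, nor where the replicates came from. Values are linear probe set signals, and changes are log2 differences from 1 limma fit over all 15 arrays with the labelling kit as a term, called at an adjusted p under 0.05.

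Replication is prepared in G1, when the origin recognition complex with Cdc6 and Cdt1 loads the MCM2-7 ring onto DNA. In S phase the kinase Cdc7 and the factors Cdc45, Mcm10 and GINS turn the ring into an active helicase, primase and the polymerases copy the strands behind it, and the clamp Pcna holds the polymerases on DNA. The E2F activators are known to drive many of these genes at the passage from G1 to S, and resting B cells enter S phase after stimulation through the receptor or Tlr9.

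Promoter sequences are shown because E2F sites are the textbook link between these genes. RefSeq promoters on GRCm38.p6, from 250 bases before to 50 after a gene start, were held for 40 of the 47 genes, 52 promoters in all. The E2F words TTTCCCGC, TTTGGCGC, TTTGCCGC and TTTCGCGC were searched on both strands, and places that overlap were both kept. They were found in 16 of the 52 promoters (30.8%), against 2.265% of all 32851 RefSeq promoters of the same length. The CCAAT box, CCAAT on either strand, which lies in none of these words, was found in 31 of the 52 (59.6%), against 37.4% of all promoters. E2F words stood in 2 of 8 promoters of genes that rose with at least 1 stimulus, in 6 of 16 promoters of genes that fell, and in 8 of 26 promoters of genes that were not called. The 4 sequences run 5′ to 3′ in the direction of the gene, with E2F words on either strand in capitals. Mcm3 (chr1:20820263-20820562, minus strand) rose with anti-IgM+CpG, E2f2 (chr4:136172024-136172323, plus strand) fell with all 4 stimuli, Cdc6 (chr11:98907901-98908200, plus strand) fell with anti-IgM and CpG, and Pold2 (chr11:5878207-5878506, minus strand), which rose with all 4, held none of these words in this window. E2f2 and Pold2 each have a further promoter entry that is not shown. A match describes letters and is not a site of binding.
Mcm3: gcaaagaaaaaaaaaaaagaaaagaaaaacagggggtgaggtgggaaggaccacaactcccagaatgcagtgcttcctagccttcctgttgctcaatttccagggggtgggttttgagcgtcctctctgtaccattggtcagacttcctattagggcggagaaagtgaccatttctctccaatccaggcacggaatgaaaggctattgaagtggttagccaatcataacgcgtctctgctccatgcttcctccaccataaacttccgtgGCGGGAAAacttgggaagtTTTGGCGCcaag
E2f2: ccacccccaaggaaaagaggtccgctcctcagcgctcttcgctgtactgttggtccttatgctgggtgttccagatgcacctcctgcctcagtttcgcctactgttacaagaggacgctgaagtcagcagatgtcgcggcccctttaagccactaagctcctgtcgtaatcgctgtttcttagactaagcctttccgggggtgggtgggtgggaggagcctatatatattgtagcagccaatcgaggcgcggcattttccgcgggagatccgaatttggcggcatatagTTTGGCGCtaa
Cdc6: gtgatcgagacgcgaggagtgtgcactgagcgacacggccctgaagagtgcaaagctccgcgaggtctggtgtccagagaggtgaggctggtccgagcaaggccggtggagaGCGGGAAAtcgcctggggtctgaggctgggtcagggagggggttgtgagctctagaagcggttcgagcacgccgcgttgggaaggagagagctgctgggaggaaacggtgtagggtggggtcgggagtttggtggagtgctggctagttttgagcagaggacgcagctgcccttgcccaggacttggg
Pold2: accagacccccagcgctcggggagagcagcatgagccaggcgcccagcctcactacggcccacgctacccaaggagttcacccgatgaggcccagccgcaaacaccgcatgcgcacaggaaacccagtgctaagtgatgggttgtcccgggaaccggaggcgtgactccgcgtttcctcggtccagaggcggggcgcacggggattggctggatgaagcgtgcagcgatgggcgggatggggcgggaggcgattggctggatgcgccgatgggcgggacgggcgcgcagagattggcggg

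Single arrays stood apart from their group, and the anti-IgM+CpG arrays stood apart together. Media replicate 3 was the highest of the 15 arrays for 25 of the 45 tested replication genes (55.6%, against 19.4% of all tested genes), and anti-IgM+CpG replicate 1 for 7 (15.6%, against 5.62%). These 2 arrays also had the highest signals of the proliferation antigen Mki67 (22855 on anti-IgM+CpG replicate 1 and 29953 on media replicate 3, against 2472 to 14854 on the other 13). Their summed signals of mitosis genes, myeloid markers and erythroid markers were also the highest. The myeloid sums were led by S100a8 (64080 and 89505 in the same order) and S100a9 (61730 and 81778). Not every myeloid marker was high on anti-IgM+CpG replicate 1. There Csf1r was at 2750, against 4476 to 26140 in the other groups, and Cd14 at 2598, against 1642 to 6941 on all other arrays. The 3 anti-IgM+CpG arrays had Xist signals of 321 to 589, against 4252 to 15543 on the other 12, and actin 5′ to 3′ ratios of 0.105 to 0.193, which for replicates 1 and 2 lay with the Ambion arrays of the other groups (0.108 to 0.201) and not with the Enzo arrays (0.335 to 0.747) that their labels name. B cell markers, 7 genes including Cd79a, Cd79b and Ms4a1, were present on all arrays. Calls that depended on 1 of these arrays are given with and without it.

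**Figure D1:**
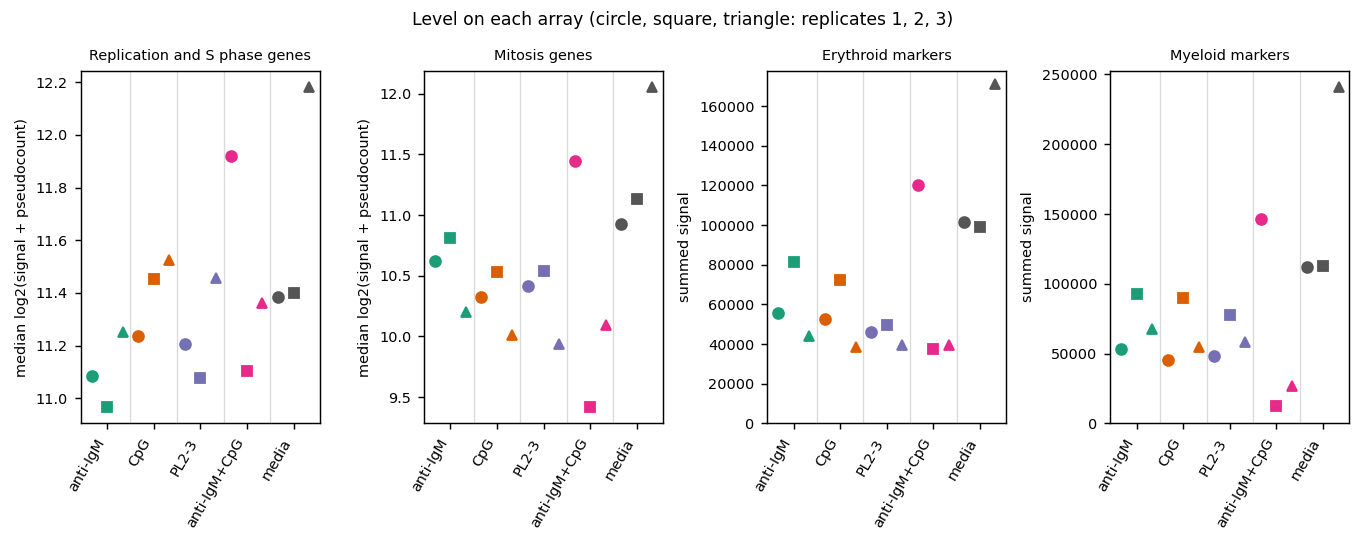
Levels on each of the 15 arrays, from left to right anti-IgM, CpG, PL2-3, anti-IgM+CpG and media: median log2(signal + pseudocount) of the 45 tested replication genes and of the mitosis genes, and summed signals of erythroid and myeloid markers. Media replicate 3 and anti-IgM+CpG replicate 1 are the 2 highest arrays in each panel, at 241244 and 146523 for the myeloid sum.

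Against media, the replication genes did not move as a block. Of the 45, 7 rose and 13 fell with at least 1 stimulus, 0 went both ways, and 25 were not called with any. Shares of all tested genes are given below for each stimulus, and were not taken for these counts over 4 stimuli. Pcna, the sliding clamp, and Pold2, the accessory subunit of polymerase delta, rose with all 4 stimuli. Prim2, the large primase subunit, Rrm2 and Tk1, which supply deoxynucleotides, and the transcription factor E2f2 fell with all 4. The 4 comparisons share the same 3 media arrays, so their results are not independent of each other. Another probe set of the gene was at hand for 33 of the calls against media. All other probe sets changed in the same direction in 29 of these, and at least 1 in the opposite direction in 4.

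With anti-IgM, 2 of 45 genes rose and 8 fell, 22.2% in all, against 19.5% of all tested genes (10.1% higher and 9.32% lower). With CpG 4 rose and 8 fell, 26.7%, against 30.1% of all (13.1% higher and 16.9% lower). With PL2-3 4 rose and 9 fell, 28.9%, against 25.9% (12.4% higher and 13.5% lower). With anti-IgM+CpG 7 rose and 10 fell, 37.8%, against 41.9% (17.2% higher and 24.8% lower). The share of replication genes called was thus near that of all genes in each comparison. Their median log2 change was -0.39 with anti-IgM, -0.23 with CpG, -0.38 with PL2-3 and -0.05 with anti-IgM+CpG, and that of all genes was -0.13, -0.21, -0.10 and -0.29 in the same order.

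When the arrays were shifted to a common median, which moved the median of all genes to 0.12, 0.15, 0.09 and 0.30 in that order, the calls became 3 higher and 2 lower with anti-IgM, 7 and 4 with CpG, 6 and 4 with PL2-3, and 13 and 4 with anti-IgM+CpG. Without media replicate 3, 2 rose and 1 fell with anti-IgM, 6 and 4 with CpG, 3 and 4 with PL2-3, and 6 and 7 with anti-IgM+CpG. Without both media replicate 3 and anti-IgM+CpG replicate 1, a choice made after the data were seen, 3 rose and 6 fell with anti-IgM, 7 and 7 with CpG, 4 and 8 with PL2-3, and 4 and 12 with anti-IgM+CpG. Calls over all tested genes in these refits are not given here, so these counts do not set the replication genes apart.

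**Figure D2:**
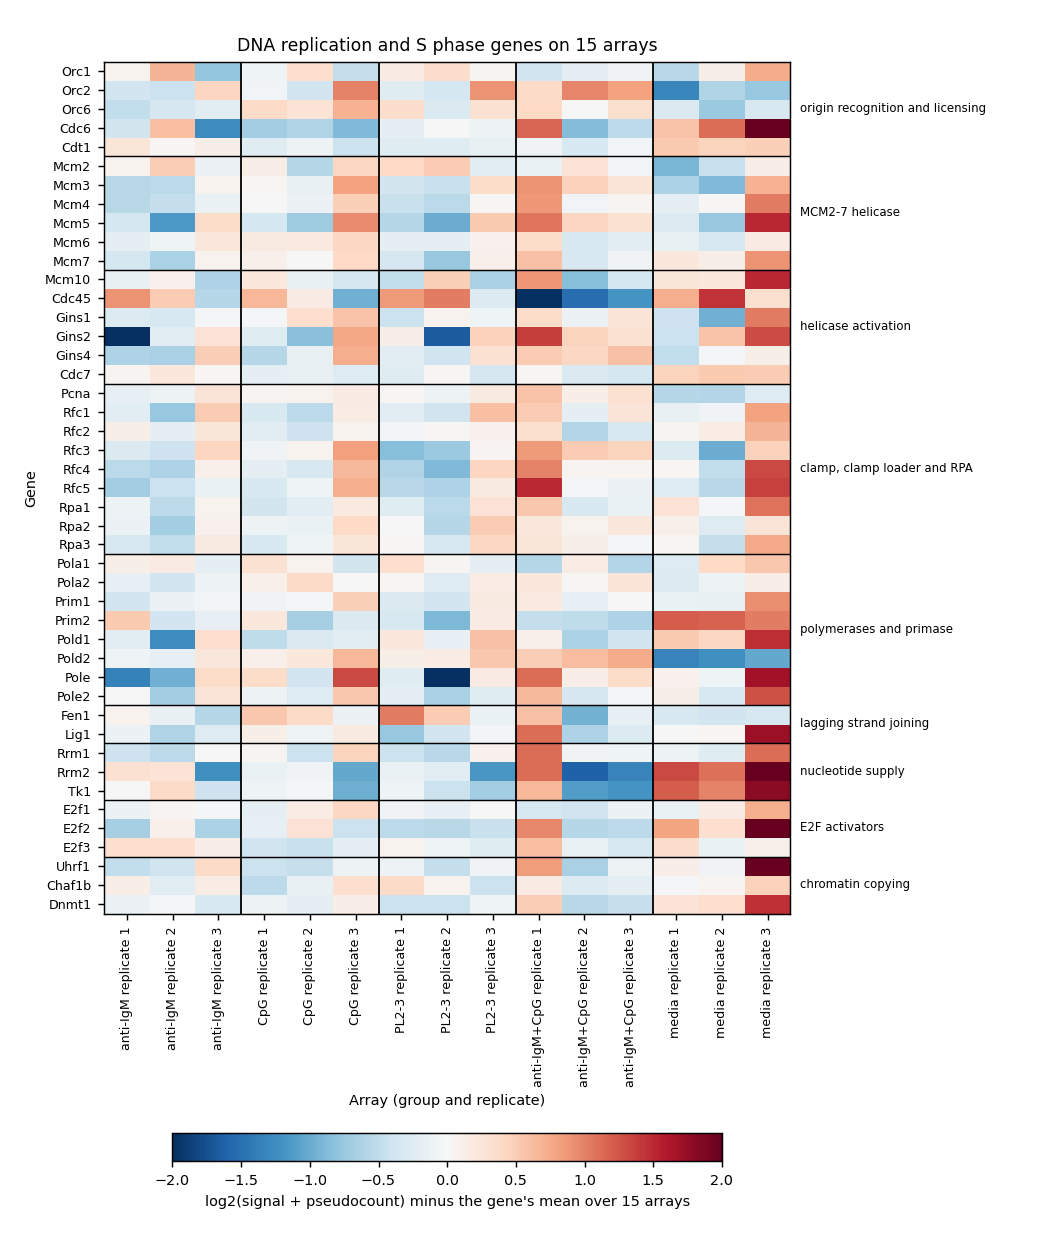
Log2(signal + pseudocount) of the 45 tested genes (rows, by role) on the 15 arrays (columns, anti-IgM, CpG, PL2-3, anti-IgM+CpG, media), each minus the gene's mean over all arrays, red higher and blue lower. The media replicate 3 column is the highest for 25 of the 45 genes.

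**Figure D3:**
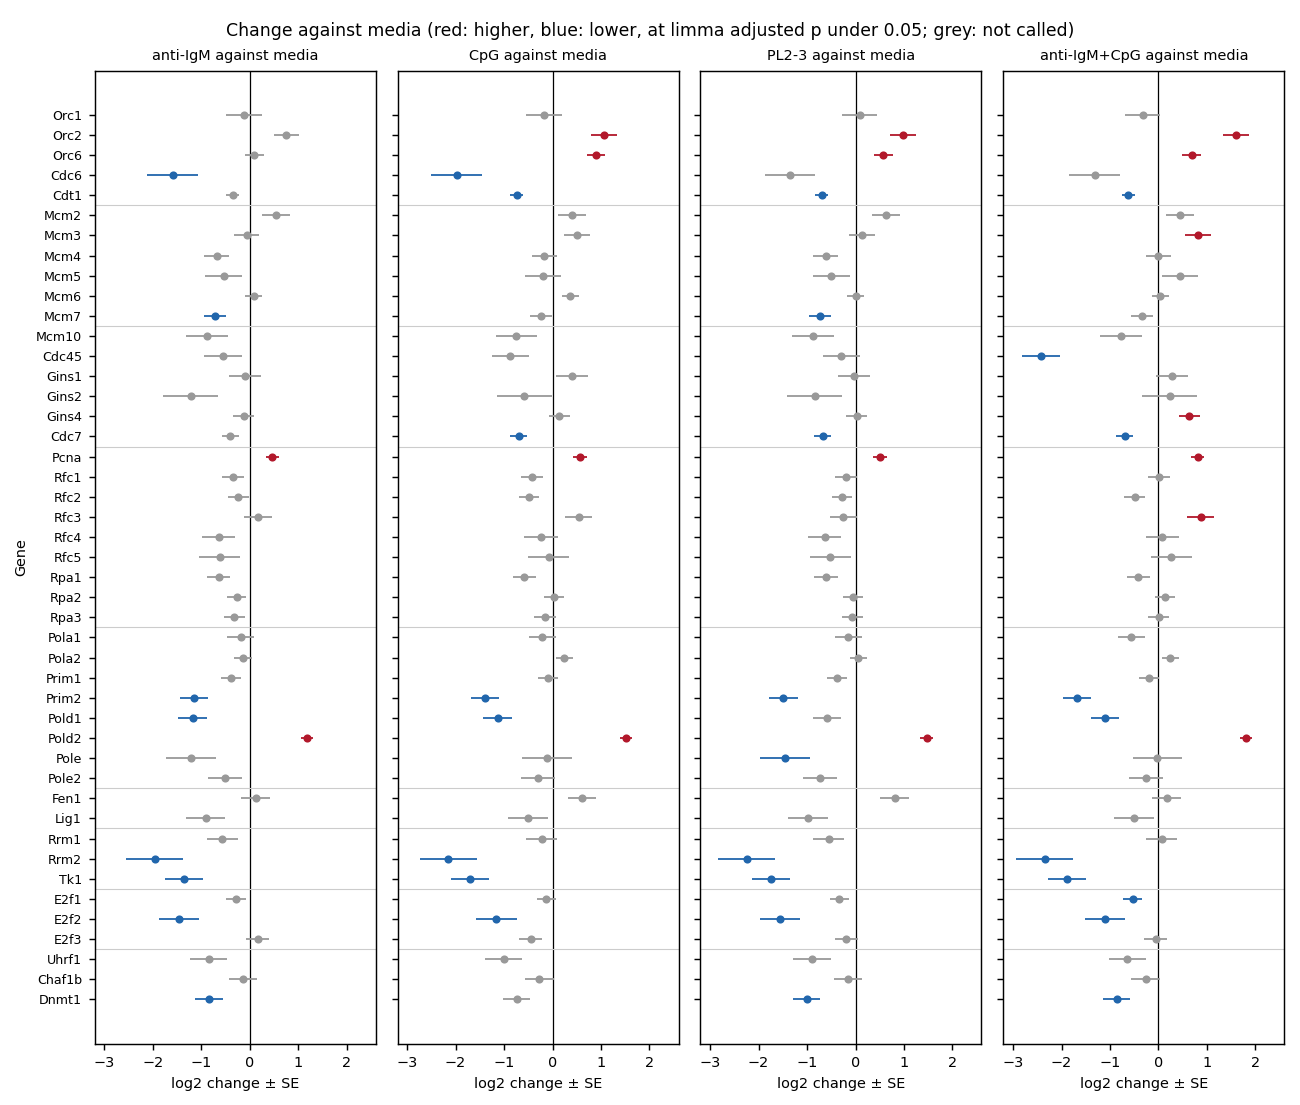
Log2 change ± SE of each tested gene against media with anti-IgM, CpG, PL2-3 and anti-IgM+CpG, from left to right. Red points passed an adjusted p under 0.05 as higher, blue as lower, and Pold2 and Pcna are red in all 4 panels.

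Among the 5 origin recognition and licensing genes, the origin recognition subunits Orc2 and Orc6 rose and the loaders Cdc6 and Cdt1 fell. Cdc6, the ATPase that recruits the ring to origins, had signals of 365, 785 and 161 with anti-IgM, 274, 299 and 232 with CpG, 418, 493 and 451 with PL2-3, 1199, 238 and 322 with anti-IgM+CpG, and 767, 1157 and 2289 in media. All CpG and PL2-3 arrays were below all media arrays, whereas anti-IgM replicate 2 and anti-IgM+CpG replicate 1 were above the lowest media array. Its log2 changes were -1.59 ± 0.52 with anti-IgM (adjusted p = 0.043), -1.98 ± 0.52 with CpG (0.0092), -1.35 ± 0.52 with PL2-3 (0.069) and -1.32 ± 0.52 with anti-IgM+CpG (0.054). Without media replicate 3 its change with CpG was -1.38 (adjusted p = 0.082). Cdc6 lost its call with anti-IgM when anti-IgM replicate 1 or 3, any CpG array, any PL2-3 array or media replicate 2 or 3 was left out (at -1.70 to -0.996). Cdc6 did not pass with arrays shifted to a common median, at -1.35 with anti-IgM (adjusted p = 0.065). Cdc6 in a fit with the replicate number as a block was at -1.59 with anti-IgM (adjusted p = 0.051).

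Cdt1, which works with Cdc6 in loading, had signals of 21360.0, 18276 and 19716 with anti-IgM, 15305, 16837 and 13388 with CpG, 15207, 15291 and 16239 with PL2-3, 17289, 14689 and 17381 with anti-IgM+CpG, and 26019.8, 24649 and 25051 in media. Every stimulated array lay below every media array. It fell by 0.74 ± 0.13 with CpG (adjusted p = 5.8e-04), by 0.69 ± 0.13 with PL2-3 (0.0011) and by 0.62 ± 0.13 with anti-IgM+CpG (0.0015), and with anti-IgM the change was -0.35 ± 0.13 (0.075). These 3 calls were lost with arrays shifted to a common median, where the change with anti-IgM+CpG was -0.02 (adjusted p = 0.94).

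Orc2 averaged 2599 ± 965 with anti-IgM, 3388 ± 1828 with CpG, 3195 ± 1710.1 with PL2-3, 4614 ± 932 with anti-IgM+CpG and 1476 ± 368 in media (mean signal ± SD, n = 3 each). It rose by 1.06 ± 0.26 with CpG (adjusted p = 0.0062), 0.99 ± 0.26 with PL2-3 (0.011) and 1.61 ± 0.26 with anti-IgM+CpG (1.7e-04). All stimulated arrays were above all media arrays, and with anti-IgM the change was 0.76 ± 0.26 (0.056). Its other 2 probe sets differed by 0.02 and 1.03 with CpG and lay on both sides of 0 with anti-IgM+CpG, the lower at -1.36. Orc2 lost its call with CpG when CpG replicate 3 was left out (at 0.86), and with PL2-3 when PL2-3 replicate 3 or media replicate 3 was left out (at 0.77 to 0.78).

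Orc6 averaged 1904 ± 179.8 with anti-IgM, 3392 ± 546 with CpG, 2728 ± 638 with PL2-3, 2926 ± 431 with anti-IgM+CpG and 1791 ± 313 in media (mean signal ± SD, n = 3 each). It rose by 0.90 ± 0.20 with CpG (adjusted p = 0.0025), 0.57 ± 0.20 with PL2-3 (0.04) and 0.69 ± 0.20 with anti-IgM+CpG (0.0099), and its change with anti-IgM was 0.10 ± 0.20 (0.79). Orc6 lost its call with PL2-3 when anti-IgM replicate 1 or 3, CpG replicate 1, PL2-3 replicate 1 or 3 or media replicate 2 or 3 was left out (at 0.41 to 0.57), and with anti-IgM+CpG when media replicate 2 was left out (at 0.57). Orc6 did not pass with the labelling class read from the actin ratio, at 0.52 with anti-IgM+CpG (adjusted p = 0.071). Orc1, the ATPase subunit of the complex, was not called, with changes between -0.33 with anti-IgM+CpG and 0.08 with PL2-3.

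Of the 6 subunits of the MCM2-7 ring, the helicase that unwinds DNA, 1 rose and 1 fell with at least 1 stimulus. Mcm3 had signals of 6026, 6106 and 9366 with anti-IgM, 9113, 7980.1 and 15503 with CpG, 6845, 6541 and 11499.8 with PL2-3, 16564, 12214 and 10657 with anti-IgM+CpG, and 5706, 4787 and 14377 in media. Media replicate 3 was above all but CpG replicate 3 and anti-IgM+CpG replicate 1, so the groups overlap. Its changes were -0.06 ± 0.27 with anti-IgM (adjusted p = 0.9), 0.50 ± 0.27 with CpG (0.17), 0.13 ± 0.27 with PL2-3 (0.79) and 0.81 ± 0.27 with anti-IgM+CpG (0.022), and only the last passed. Leaving out media replicate 3 gave 0.83 (adjusted p = 0.031) with CpG and 1.14 (adjusted p = 0.0033) with anti-IgM+CpG, and without anti-IgM+CpG replicate 1 the change with anti-IgM+CpG was 0.51 (adjusted p = 0.12). Mcm3 lost its call with anti-IgM+CpG when anti-IgM+CpG replicate 1 or 2 or media replicate 1 or 2 was left out (at 0.51 to 0.74). Mcm3 did not pass with the labelling class read from the actin ratio, at 0.19 with anti-IgM+CpG (adjusted p = 0.51). Its other 4 probe sets differed by -1.49 to 0.88 with anti-IgM+CpG, 2 of them below 0.

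Mcm7 had signals of 15850.1, 12983 and 21132 with anti-IgM, 21637, 20133 and 26675 with CpG, 16040.4, 11888 and 21686 with PL2-3, 30456, 16074 and 19154 with anti-IgM+CpG, and 23427, 21926 and 37556 in media. All anti-IgM and PL2-3 arrays lay below all media arrays. It fell by 0.71 ± 0.23 with anti-IgM (adjusted p = 0.037) and by 0.74 ± 0.23 with PL2-3 (0.025), and its changes were -0.24 ± 0.23 with CpG (0.45) and -0.35 ± 0.23 with anti-IgM+CpG (0.24). When media replicate 3 was left out they were -0.58 (adjusted p = 0.16) with anti-IgM and -0.61 (adjusted p = 0.12) with PL2-3. Mcm7 lost its call with anti-IgM when any anti-IgM array or any media array was left out (at -0.79 to -0.58), and with PL2-3 when PL2-3 replicate 2 or media replicate 1 or 3 was left out (at -0.77 to -0.58). Mcm7 did not pass with arrays shifted to a common median, at -0.47 with anti-IgM (adjusted p = 0.3) and -0.55 with PL2-3 (adjusted p = 0.19). The other 4 subunits were not called, with changes of 0.39 to 0.64 for Mcm2, -0.68 to -0.01 for Mcm4, -0.54 to 0.45 for Mcm5 and 0.01 to 0.36 for Mcm6. The log2 changes of the 6 subunits of 1 ring thus lay between -0.74 and 0.64 with PL2-3 alone.

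Among the 6 helicase activation genes, Gins4 rose with anti-IgM+CpG, Cdc45 fell with it, and Cdc7 fell with 3 stimuli. Cdc45, which joins the ring to form the active helicase, had signals of 1362, 1023 and 448 with anti-IgM, 1148, 789 and 323 with CpG, 1322, 1498 and 562 with PL2-3, 108, 194 and 267 with anti-IgM+CpG, and 1199.7, 2039 and 886 in media. The 3 anti-IgM+CpG arrays were the lowest of all 15. It fell by 2.42 ± 0.38 with anti-IgM+CpG (adjusted p = 1.2e-04), while the changes with anti-IgM, CpG and PL2-3 were -0.55, -0.87 and -0.30 (adjusted p = 0.36, 0.099 and 0.64). The fall with anti-IgM+CpG kept its call in all 30 alternatives, from -3.02 to -1.40, and the second probe set was at -1.18. These 3 signals lay below the medians of their arrays (303, 266 and 277). In each other group Cdc45 was lowest on replicate 3, the Ambion array, at 448, 323, 562 and 886. All 3 anti-IgM+CpG arrays had low actin ratios (0.105 to 0.193) and also stood apart in Xist. The treatment and these differences of the arrays cannot be told apart.

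Gins4, a subunit of the GINS complex, had signals of 2097, 2058 and 4630.2 with anti-IgM, 2179, 2922 and 5456 with CpG, 2786, 2448 and 4034 with PL2-3, 4653, 4375 and 4932 with anti-IgM+CpG, and 2295, 3186 and 3561 in media. Its 3 anti-IgM+CpG arrays were above all media arrays, and the other groups overlapped media. It rose by 0.64 ± 0.22 with anti-IgM+CpG (adjusted p = 0.029), with 0.52 (adjusted p = 0.12) without media replicate 3 and 0.52 (adjusted p = 0.098) without anti-IgM+CpG replicate 1. Gins4 lost its call with anti-IgM+CpG when anti-IgM+CpG replicate 1 or 2 or media replicate 1 or 3 was left out (at 0.52 to 0.56). Gins4 did not pass with the labelling class read from the actin ratio, at 0.10 with anti-IgM+CpG (adjusted p = 0.77). With a labelling class read from the actin ratio and without media replicate 3 the sign turned, at -0.18 (adjusted p = 0.67).

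Cdc7, the kinase that fires origins, averaged 2021 ± 152 with anti-IgM, 1617 ± 63.8 with CpG, 1652 ± 234 with PL2-3, 1634 ± 257 with anti-IgM+CpG and 2677 ± 72.1 in media (mean signal ± SD, n = 3 each), and every stimulated array was below every media array. It fell by 0.70 ± 0.17 with CpG (adjusted p = 0.0049), by 0.68 ± 0.17 with PL2-3 (0.0068) and by 0.70 ± 0.17 with anti-IgM+CpG (0.0035). Cdc7 did not pass with arrays shifted to a common median, at -0.34 with CpG (adjusted p = 0.25), -0.49 with PL2-3 (adjusted p = 0.096) and -0.10 with anti-IgM+CpG (adjusted p = 0.74). Its second probe set was at 0.03 with PL2-3. Mcm10, Gins1 and Gins2 were not called, with changes between -1.22 for Gins2 with anti-IgM and 0.40 for Gins1 with CpG.

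The 9 genes of the clamp, its loader and the single-strand binding protein RPA held no call lower with any stimulus. Of all tested genes, 9.32% were called lower with anti-IgM, 16.9% with CpG, 13.5% with PL2-3 and 24.8% with anti-IgM+CpG. With only 9 genes, the lack of lower calls does not set this role apart. Pcna had signals of 41437, 43324 and 55107 with anti-IgM, 48144, 48613 and 51939 with CpG, 47368, 43222 and 52627 with PL2-3, 68523, 50821 and 57497 with anti-IgM+CpG, and 31327, 30731 and 38569.9 in media. Every stimulated array was above every media array. It rose by 0.47 ± 0.14 with anti-IgM (adjusted p = 0.027), 0.57 ± 0.14 with CpG (0.0058), 0.51 ± 0.14 with PL2-3 (0.013) and 0.81 ± 0.14 with anti-IgM+CpG (2.7e-04). Without media replicate 3 the changes were 0.52 (adjusted p = 0.04), 0.62 (adjusted p = 0.01), 0.56 (adjusted p = 0.02) and 0.86 (adjusted p = 6.7e-04) in the same order. Pcna lost its call with anti-IgM when anti-IgM replicate 2 or 3 or media replicate 1 or 2 was left out (at 0.39 to 0.49), and with PL2-3 when PL2-3 replicate 1 was left out (at 0.48).

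Rfc3, a small subunit of the clamp loader, had signals of 738, 671 and 1269 with anti-IgM, 871, 971 and 1676 with CpG, 474, 521 and 960.2 with PL2-3, 1715, 1348 and 1287 with anti-IgM+CpG, and 749, 425 and 1301 in media. Media replicate 3 was above most stimulated arrays, and the groups overlapped. It rose by 0.87 ± 0.28 with anti-IgM+CpG (adjusted p = 0.021), and without anti-IgM+CpG replicate 1 the change was 0.63 (adjusted p = 0.1). Rfc3 lost its call with anti-IgM+CpG when anti-IgM+CpG replicate 1 or 2 or media replicate 2 was left out (at 0.61 to 0.80). Rfc3 did not pass with the labelling class read from the actin ratio, at 0.28 with anti-IgM+CpG (adjusted p = 0.44). Its second probe set went the other way, at -0.31. The loader subunits Rfc1, Rfc2, Rfc4 and Rfc5 and the RPA subunits Rpa1, Rpa2 and Rpa3 were not called, with changes between -0.64 for Rpa1 with anti-IgM and 0.26 for Rfc5 with anti-IgM+CpG.

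Of the 8 polymerase and primase genes, Pold2 rose with all 4 stimuli, Prim2 fell with all 4, Pold1 fell with 3 and Pole with 1. Pold2 had signals of 11732, 11105 and 14571 with anti-IgM, 13398, 14542 and 19893 with CpG, 13608, 13918 and 18133 with PL2-3, 17606, 19239 and 20940.5 with anti-IgM+CpG, and 4909, 5287 and 6117 in media. Every stimulated array was above every media array, the lowest at 11105 against 6117 for the highest in media. Its changes were 1.18 ± 0.12 with anti-IgM (adjusted p = 2.4e-05), 1.52 ± 0.12 with CpG (8.2e-07), 1.47 ± 0.12 with PL2-3 (2.6e-06) and 1.81 ± 0.12 with anti-IgM+CpG (1.0e-07). All 4 calls were kept in every alternative in which they could be fitted, from 1.13 to 2.41 over the 4 stimuli.

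Pold1, the catalytic subunit of the same polymerase, went the other way. It averaged 2834 ± 1454 with anti-IgM, 2647 ± 279.8 with CpG, 3975 ± 1035 with PL2-3, 2759 ± 755 with anti-IgM+CpG and 6242 ± 2769 in media (mean signal ± SD, n = 3 each), and fell by 1.18 ± 0.29 with anti-IgM (adjusted p = 0.0098), by 1.14 ± 0.29 with CpG (0.0079) and by 1.11 ± 0.29 with anti-IgM+CpG (0.0067). With PL2-3 the change was -0.59 ± 0.29 (0.16). The same changes were -0.98 (adjusted p = 0.065), -0.94 (adjusted p = 0.054) and -0.91 (adjusted p = 0.045) with anti-IgM, CpG and anti-IgM+CpG when media replicate 3 was left out. The anti-IgM, CpG and anti-IgM+CpG arrays all lay below media, and the PL2-3 arrays overlapped it. Pold1 lost its call with anti-IgM when anti-IgM replicate 2 or media replicate 3 was left out (at -0.98 to -0.81), and with CpG when CpG replicate 3 or media replicate 3 was left out (at -0.98 to -0.94). Pold1 did not pass with arrays shifted to a common median, at -0.93 with anti-IgM (adjusted p = 0.068), -0.78 with CpG (adjusted p = 0.1) and -0.51 with anti-IgM+CpG (adjusted p = 0.26).

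Prim2 averaged 1651 ± 592 with anti-IgM, 1374 ± 451 with CpG, 1293 ± 484 with PL2-3, 1076 ± 60.2 with anti-IgM+CpG and 3601 ± 253 in media (mean signal ± SD, n = 3 each), and every stimulated array was below every media array. It fell by 1.14 ± 0.29 with anti-IgM (adjusted p = 0.011), by 1.39 ± 0.29 with CpG (0.0019), by 1.49 ± 0.29 with PL2-3 (0.0013). With anti-IgM+CpG it fell by 1.67 ± 0.29 (adjusted p = 2.7e-04). Media replicate 3 was here the lowest media array, and the calls with CpG, PL2-3 and anti-IgM+CpG were kept in all alternatives in which they could be fitted. Prim2 lost its call with anti-IgM when anti-IgM replicate 2 or 3 was left out (at -1.03 to -0.95). Prim2 did not pass with arrays shifted to a common median, at -0.90 with anti-IgM (adjusted p = 0.077). Its partner Prim1, the catalytic primase subunit, was not called, with changes from -0.39 with anti-IgM to -0.09 with CpG.

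Pole, the catalytic subunit of polymerase epsilon, fell with PL2-3 by 1.45 ± 0.51 (adjusted p = 0.048), with a mean signal of 546 ± 428 against 1445 ± 1113 in media (SD, n = 3 each), and the arrays overlapped. That call was lost in 23 of 31 alternatives. Pole lost its call with PL2-3 when any anti-IgM array, any CpG array, PL2-3 replicate 2 or 3, anti-IgM+CpG replicate 2 or any media array was left out (at -1.62 to -0.77). Pole did not pass with arrays shifted to a common median, at -1.26 with PL2-3 (adjusted p = 0.1). Pola1, Pola2 and Pole2, subunits of polymerases alpha and epsilon, were not called, with changes between -0.72 for Pole2 with PL2-3 and 0.25 for Pola2 with anti-IgM+CpG.

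Neither lagging strand joining gene was called. Fen1, the flap nuclease, had signals of 18950.3, 16154 and 12097 with anti-IgM, 26149.8, 23424 and 16604 with CpG, 36957, 25622 and 16326 with PL2-3, 26903, 9314 and 16098 with anti-IgM+CpG, and 14391, 13761 and 14394 in media. CpG and PL2-3 arrays were all above media, and the changes were 0.13 ± 0.30 with anti-IgM (adjusted p = 0.82), 0.61 ± 0.30 with CpG (0.14), 0.81 ± 0.30 with PL2-3 (0.055) and 0.17 ± 0.30 with anti-IgM+CpG (0.67). Fen1 in a fit with the replicate number as a block passed with PL2-3, at 0.81 (adjusted p = 0.028). Lig1, DNA ligase, had log2 changes of -0.98 with PL2-3 to -0.50 with anti-IgM+CpG, and media replicate 3 had 9458 against 2833 and 2904 on the other media arrays.

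The nucleotide supply genes Rrm2 and Tk1 fell with all 4 stimuli. Rrm2, the small subunit of ribonucleotide reductase that accumulates in S phase, had signals of 5904, 5781 and 2001 with anti-IgM, 4384, 4539 and 2312 with CpG, 4360.4, 4102 and 2099.6 with PL2-3, 10527, 1515 and 1852 with anti-IgM+CpG, and 12074, 10386 and 33881 in media. Media replicate 3 was the highest array, and anti-IgM+CpG replicate 1 was the only stimulated array above a media array. Its changes were -1.96 ± 0.59 with anti-IgM (adjusted p = 0.027), -2.15 ± 0.59 with CpG (0.011), -2.25 ± 0.59 with PL2-3 (0.0097) and -2.35 ± 0.59 with anti-IgM+CpG (0.0045). Without media replicate 3 they were -1.06 (adjusted p = 0.2), -1.25 (adjusted p = 0.091), -1.34 (adjusted p = 0.077) and -1.44 (adjusted p = 0.038) in the same order. Rrm2 lost its call with anti-IgM when anti-IgM replicate 1 or 3 or media replicate 3 was left out (at -2.13 to -1.06), and with CpG when CpG replicate 3 or media replicate 3 was left out (at -2.01 to -1.25).

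Tk1, thymidine kinase, averaged 1279 ± 370.2 with anti-IgM, 1002 ± 348 with CpG, 947 ± 214 with PL2-3, 1027 ± 877 with anti-IgM+CpG and 3391 ± 1047 in media (mean signal ± SD, n = 3 each), and every stimulated array was below every media array. Its changes were -1.35 ± 0.39 with anti-IgM (adjusted p = 0.023), -1.70 ± 0.39 with CpG (0.0037), -1.74 ± 0.39 with PL2-3 (0.0036) and -1.89 ± 0.39 with anti-IgM+CpG (0.0012), and without media replicate 3 the change with anti-IgM was -0.88 (adjusted p = 0.17). Tk1 lost its call with anti-IgM when anti-IgM replicate 1 or 3 or media replicate 3 was left out (at -1.29 to -0.88). Tk1 did not pass with arrays shifted to a common median, at -1.11 with anti-IgM (adjusted p = 0.053). Rrm1, the large subunit of the reductase, was not called, with changes from -0.56 with anti-IgM to 0.07 with anti-IgM+CpG.

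Of the E2F activators, E2f2 fell with all 4 stimuli, E2f1 fell with anti-IgM+CpG and E2f3 was not called. E2f2 had signals of 1566, 2724 and 1607 with anti-IgM, 2254, 3110.0 and 1859 with CpG, 1744, 1713 and 1849 with PL2-3, 5001, 1683 and 1745 with anti-IgM+CpG, and 4444, 3233 and 10701 in media. All anti-IgM, CpG and PL2-3 arrays were below all media arrays, and anti-IgM+CpG replicate 1 was above the lowest of them. Its changes were -1.46 ± 0.42 with anti-IgM (adjusted p = 0.022), -1.16 ± 0.42 with CpG (0.047), -1.56 ± 0.42 with PL2-3 (0.011) and -1.10 ± 0.42 with anti-IgM+CpG (0.045). The 4 changes without media replicate 3 were -0.85 (adjusted p = 0.17), -0.55 (adjusted p = 0.33), -0.95 (adjusted p = 0.092) and -0.49 (adjusted p = 0.34) in the same order, so none passed. E2f2 lost its call with anti-IgM when anti-IgM replicate 1 or 3 or media replicate 3 was left out (at -1.32 to -0.85), with CpG when anti-IgM replicate 1 or 3, CpG replicate 1 or 3, any PL2-3 array or media replicate 1 or 3 was left out (at -1.30 to -0.55), and with anti-IgM+CpG when anti-IgM replicate 1 or 3, CpG replicate 1, any PL2-3 array, anti-IgM+CpG replicate 2 or 3 or media replicate 1 or 3 was left out (at -1.24 to -0.49). E2f2 did not pass with arrays shifted to a common median, at -0.80 with CpG (adjusted p = 0.16) and -0.51 with anti-IgM+CpG (adjusted p = 0.35). E2f2 did not pass with the labelling class read from the actin ratio, at -1.22 with anti-IgM+CpG (adjusted p = 0.051). E2f2 in a fit with the replicate number as a block was at -1.16 with CpG (adjusted p = 0.053) and -1.10 with anti-IgM+CpG (adjusted p = 0.051).

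E2f1 averaged 1504 ± 95.7 with anti-IgM, 1699 ± 366 with CpG, 1448 ± 78.7 with PL2-3, 1254 ± 135 with anti-IgM+CpG and 1904 ± 615 in media (mean signal ± SD, n = 3 each) and fell by 0.53 ± 0.20 with anti-IgM+CpG (adjusted p = 0.04). That change turned to 0.06 (adjusted p = 0.86) with arrays shifted to a common median, and it was -0.36 (adjusted p = 0.2) without media replicate 3. E2f1 lost its call with anti-IgM+CpG when any anti-IgM+CpG array or media replicate 2 or 3 was left out (at -0.56 to -0.36). E2f3 had log2 changes of -0.45 with CpG to 0.16 with anti-IgM.

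Among the chromatin copying genes, Dnmt1, which keeps DNA methylation on the new strand, fell with 3 stimuli. It had signals of 4798, 5139.8 and 4216 with anti-IgM, 4848, 4572 and 5764 with CpG, 3856, 3839 and 4905 with PL2-3, 7397, 3529.8 and 3792 with anti-IgM+CpG, and 6337, 6593 and 14591 in media. All anti-IgM, CpG and PL2-3 arrays were below all media arrays, and anti-IgM+CpG replicate 1 was above the lowest 2 of them. Its changes were -0.84 ± 0.29 with anti-IgM (adjusted p = 0.0496), -0.74 ± 0.29 with CpG (0.061), -1.01 ± 0.29 with PL2-3 (0.015) and -0.86 ± 0.29 with anti-IgM+CpG (0.024). With media replicate 3 left out, they were -0.45 (adjusted p = 0.32), -0.35 (adjusted p = 0.38), -0.62 (adjusted p = 0.12) and -0.47 (adjusted p = 0.19) in the same order, so none passed. Dnmt1 lost its call with anti-IgM when any anti-IgM array, any CpG array, any PL2-3 array or media replicate 3 was left out (at -0.95 to -0.45), and with anti-IgM+CpG when anti-IgM+CpG replicate 2 or 3 or media replicate 3 was left out (at -0.70 to -0.47). Dnmt1 did not pass with arrays shifted to a common median, at -0.60 with anti-IgM (adjusted p = 0.2), -0.82 with PL2-3 (adjusted p = 0.059) and -0.27 with anti-IgM+CpG (adjusted p = 0.52). Dnmt1 in a fit with the replicate number as a block was at -0.84 with anti-IgM (adjusted p = 0.052). Uhrf1, the partner that recruits Dnmt1, had log2 changes of -1.01 with CpG to -0.65 with anti-IgM+CpG and was not called. Chaf1b, a subunit of the chromatin assembly factor, had changes of -0.27 to -0.14 and was not called.

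**Figure D4:**
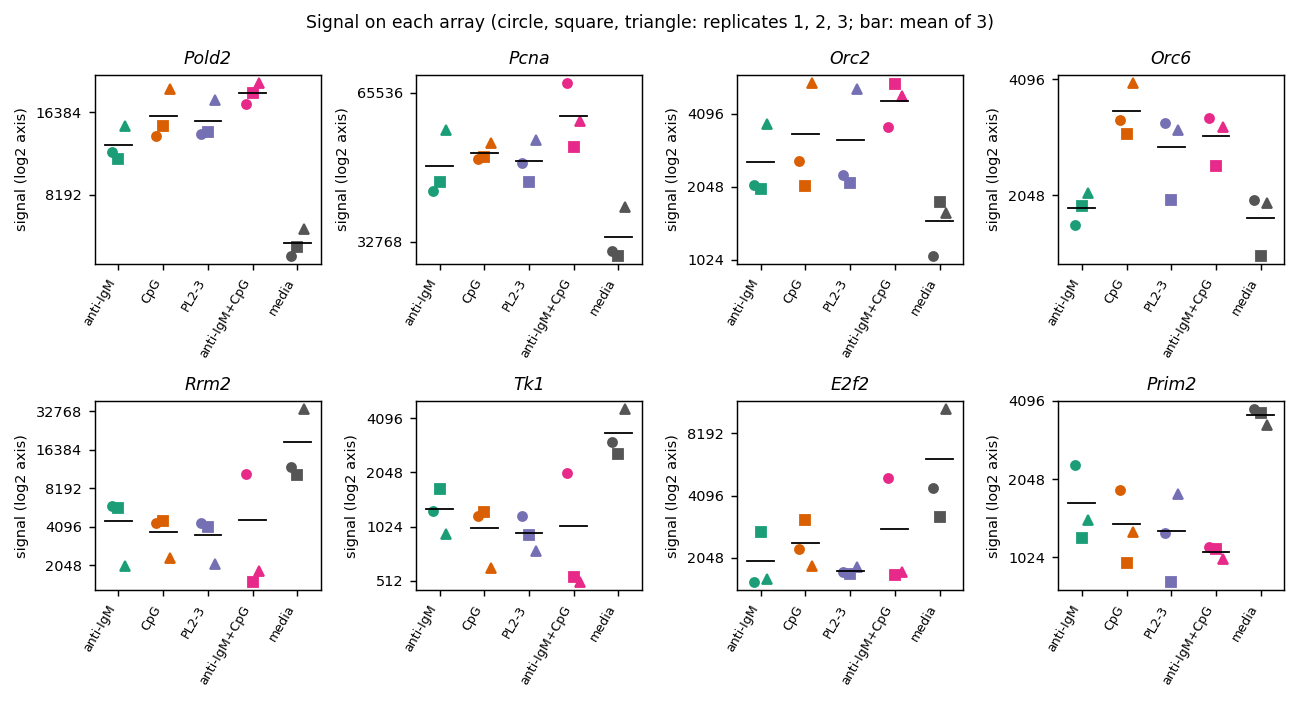
Signals of Pold2, Pcna, Orc2, Orc6, Rrm2, Tk1, E2f2 and Prim2 on each array (log2 axis), grouped as anti-IgM, CpG, PL2-3, anti-IgM+CpG and media, with a bar at the mean of 3. For Pold2 the 12 stimulated arrays lie at 11105 to 20940 and the 3 media arrays at 4909 to 6117, and for Rrm2 media replicate 3 stands at 33881.

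Summed signals of mitosis genes and of markers of other cell types were also lower on most stimulated arrays. The summed signal of 17 mitosis genes was 24559 to 38123 with anti-IgM, 22400 to 32575 with CpG, 23708 to 28680.0 with PL2-3, 18232 to 85129 with anti-IgM+CpG and 52159 to 137325 in media. None of the 17 rose with any stimulus, and 3 fell with anti-IgM, 5 with CpG, 9 with PL2-3 and 4 with anti-IgM+CpG, with a median log2 change of -1.14, -1.23, -1.34 and -1.13. Of all tested genes, 9.32%, 16.9%, 13.5% and 24.8% were called lower in the same order. Cenpa, the centromere histone, fell with all 4. With anti-IgM+CpG it fell by 1.73 ± 0.33 (adjusted p = 6.2e-04), and with PL2-3 it fell by 1.85 ± 0.33 (adjusted p = 6.8e-04).

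The 8 myeloid markers summed to 53358 to 92679 with anti-IgM, 45156 to 89559 with CpG, 48041 to 77821 with PL2-3, 12407 to 146523 with anti-IgM+CpG and 112358 to 241244 in media. The 5 erythroid markers with a probe set, of 8 listed, summed to 44323 to 81347, 38415 to 72421, 39456 to 49676 and 37482 to 120138 in the 4 stimulated groups in the same order and to 98861 to 171165 in media, led by Alas2, Slc4a1 and Car2, whereas the globin Hba-a1 had signals of 29.5 to 442 on all arrays. The 7 B cell markers summed to 65565 to 93182 with anti-IgM, 113099 to 129711 with CpG, 47845 to 91932 with PL2-3, 47592 to 76062 with anti-IgM+CpG and 211192 to 267846 in media. Of these 7, 6 fell with anti-IgM, 4 with CpG, 6 with PL2-3 and 7 with anti-IgM+CpG, and 0 rose. The share of all tested genes called lower was 9.32%, 16.9%, 13.5% and 24.8% in the same order. T cell markers, 7 genes, summed to 1944 to 5612 on the stimulated arrays and 6692 to 7048 in media, and 5 NK cell markers to 1654 to 5204 on the stimulated arrays and 5352 to 6839 in media. The part of these markers in the falls of the replication genes was not tested. In such bulk RNA, fewer cells of a type and less RNA per cell cannot be told apart.

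**Figure D5:**
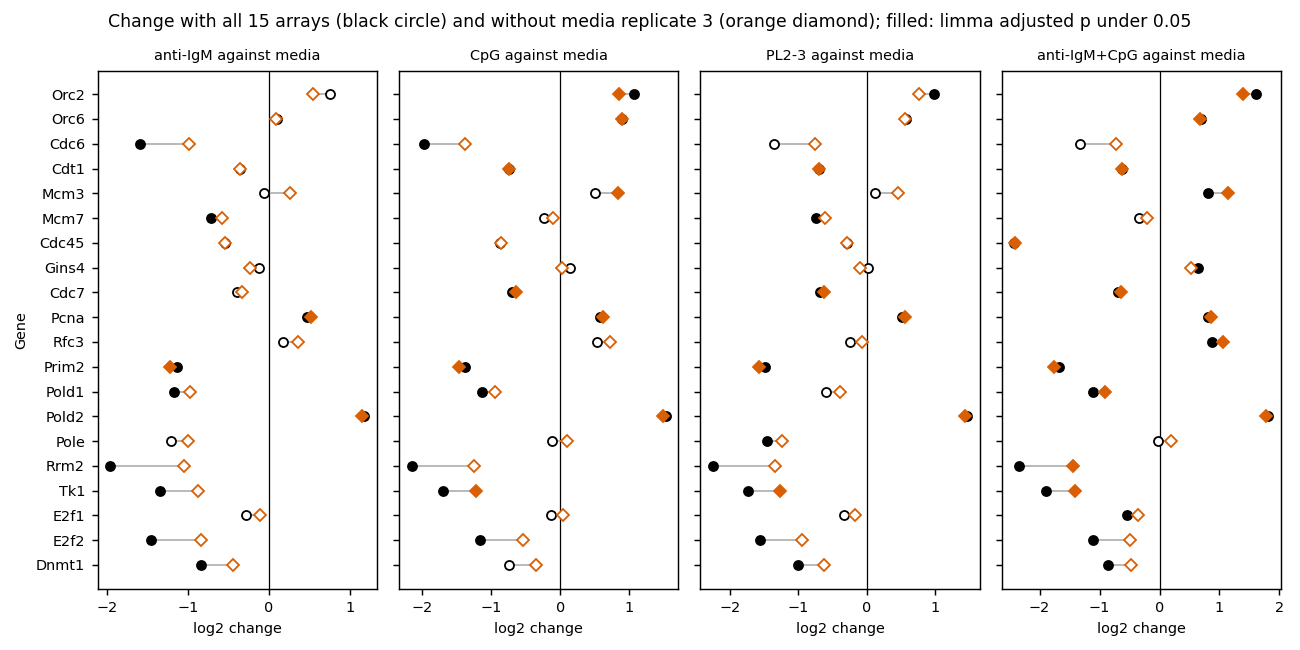
Log2 change against media of the 20 genes called with at least 1 stimulus, with all 15 arrays (black circles) and without media replicate 3 (orange diamonds), filled where the adjusted p was under 0.05. The diamonds of Rrm2 and E2f2 lie nearer to 0, while those of Pold2, Pcna and Prim2 stay filled in all 4 panels.

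Other genes of the pathway moved in both directions too. Of 42 tested other replication factors, 5 rose and 5 fell with anti-IgM, 7 and 8 with CpG, 7 and 8 with PL2-3, and 9 and 10 with anti-IgM+CpG, with median log2 changes of -0.27, -0.27, -0.33 and -0.28. Among all tested genes, 19.5%, 30.1%, 25.9% and 41.9% were called in either direction in the same order. Cdca7, known as an activator of the remodeler Hells, rose with all 4, by 1.68 ± 0.16 with CpG (adjusted p = 2.5e-06), with signals of 9594, 8438 and 8809.6 with CpG against 2921, 2921 and 2427 in media. Dctpp1, which cleans the nucleotide pool, rose by 1.73 ± 0.24 with anti-IgM+CpG (adjusted p = 3.7e-05). Dck, the deoxycytidine kinase of the salvage pathway, fell by 2.47 ± 0.40 with CpG (adjusted p = 2.7e-04), with signals of 1814, 1765 and 1586 with CpG against 9179.6, 6762 and 15307 in media. Pold4, the small subunit of polymerase delta, fell by 1.64 ± 0.21 with anti-IgM+CpG (adjusted p = 1.5e-05). Pold3, the remaining subunit of that polymerase, was not called with anti-IgM+CpG, at 0.19 ± 0.18 (adjusted p = 0.42). The 4 subunits Pold2, Pold3, Pold1 and Pold4 thus had log2 changes of 1.81, 0.19, -1.11 and -1.64 with anti-IgM+CpG.

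The 25 G1-S regulators held more calls: 6 rose and 8 fell with anti-IgM (56%), 7 and 8 with CpG (60%), 7 and 9 with PL2-3 (64%) and 6 and 12 with anti-IgM+CpG (72%). The share of all tested genes called was 19.5%, 30.1%, 25.9% and 41.9% in that order. This list, like the other lists here, was chosen with earlier results of these data known. Its larger share of calls may come from that choice and is not a result about G1-S regulators as a class. Myc, the growth regulator, rose by 2.15 ± 0.24 with anti-IgM (adjusted p = 3.5e-05), 2.10 ± 0.24 with PL2-3 (2.0e-05) and 2.25 ± 0.24 with anti-IgM+CpG (3.4e-06). Ccnd2, cyclin D2, rose by 2.55 ± 0.26 with CpG (adjusted p = 5.7e-06), with signals of 64716, 40191 and 54190.0 with CpG against 10938, 10511 and 5987 in media. Rbl2, a pocket protein that holds E2F genes silent in resting cells, fell by 1.93 ± 0.22 with anti-IgM (adjusted p = 4.5e-05), with signals of 749.8, 732 and 748 with anti-IgM against 3095, 3429.9 and 2667 in media. Rb1, its relative, fell by 1.89 ± 0.17 with PL2-3 (adjusted p = 3.5e-06), and the inhibitor Cdkn1b fell by 2.25 ± 0.37 with CpG (3.1e-04). Myc also had signals of 37330, 34453 and 21096 with CpG, against 10047, 10004 and 3100 in media. For Myc, Ccnd2, Rbl2, Rb1 and Cdkn1b, the arrays of every stimulated group lay on the same side of all media arrays. The stimuli named for these genes are those of the largest changes, and do not mark a response to that stimulus alone.

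Between the stimuli, few replication genes differed. PL2-3 against anti-IgM gave 0 of 45 calls by limma, against 0.691% of all genes called (0.342% higher and 0.35% lower), and 4 of 45 had an unadjusted p under 0.05. Changes ran from -0.42 for Rfc3 to 0.68 for Fen1. PL2-3 against CpG also gave 0 of 45 calls, against 3.2% of all genes (1.6% higher and 1.6% lower), with 3 at an unadjusted p under 0.05 and changes from -1.33 for Pole to 0.63 for Cdc6. No alternative gave a call in either comparison, which does not show that the genes respond alike. PL2-3 against anti-IgM+CpG gave 1 call, Cdc45, of 45, against 1.84% of all genes (1.32% higher and 0.517% lower), higher with PL2-3 by 2.13 ± 0.38 (adjusted p = 0.013). That call was lost when PL2-3 replicate 1 or 2 or anti-IgM+CpG replicate 2 was left out, at 2.01 to 2.10, and 2 genes were called without media replicate 2 or media replicate 3.

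CpG against anti-IgM gave 1 call of 45 by limma, against 6.41% of all genes (2.57% higher and 3.84% lower). Orc6 was higher with CpG by 0.80 ± 0.20 (adjusted p = 0.019), with 3206, 2964 and 4007 with CpG against 1715, 1924 and 2073 with anti-IgM, and no array overlapped. That call was lost when anti-IgM replicate 1 or 3 or CpG replicate 1 or 3 was left out, at 0.74 to 0.80.

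Anti-IgM+CpG against anti-IgM gave 2 higher and 1 lower of 45, against 9.07% of all genes called (3.72% higher and 5.36% lower). Gins4 was higher by 0.76 ± 0.22 (adjusted p = 0.042), Pold2 by 0.63 ± 0.12 (0.0061), and Cdc45 lower, at -1.87 ± 0.38 (0.0076). Anti-IgM+CpG against CpG gave 1 call of 45, against 4.53% of all genes (1.91% higher and 2.61% lower), with Cdc45 at -1.55 ± 0.38 (adjusted p = 0.028). The call of Gins4 was lost when anti-IgM replicate 1 or 2, CpG replicate 2, any PL2-3 array, anti-IgM+CpG replicate 1 or 2 or media replicate 1 was left out, at 0.64 to 0.76, and that of Cdc45 against CpG when CpG replicate 1 or 2 or anti-IgM+CpG replicate 1 or 2 was left out, at -1.58 to -1.15. All 4 of these calls, and that of Cdc45 with PL2-3, were lost when the labelling class was read from the actin ratio. Without anti-IgM+CpG replicate 3 the calls became 13 against anti-IgM, 4 against CpG and 10 for PL2-3 against anti-IgM+CpG. Without media replicate 3 there were 5 against anti-IgM, and without anti-IgM+CpG replicate 1 the median change against anti-IgM was -0.09, compared with 0.27 on all arrays. The share of all tested genes called in these refits is not given here, so the counts do not set the replication genes apart.

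The change with both agents was set against the sum of the changes with each. Of 45 genes 1 was called, against 2.5% of all tested genes (0.836% higher and 1.66% lower), and 12 had an unadjusted p under 0.05. Pold2, with changes of 1.81 with anti-IgM+CpG, 1.18 with anti-IgM and 1.52 with CpG, differed from the sum by -0.89 ± 0.18 (adjusted p = 0.019). The median difference of the 45 genes was 0.48, against 0.05 for all genes, and without anti-IgM+CpG replicate 1 it was 0.30. It was lower still without both that array and media replicate 3, as given in the closing section. The call of Pold2 was lost when anti-IgM replicate 1 or 3 or CpG replicate 3 was left out, at -0.89 to -0.82. Without anti-IgM+CpG replicate 3, 10 genes were called and the median difference was 0.82. For that refit the share of all tested genes called is not given here.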

How the data were processed

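RNA of AM-14 B cells was measured on 15 Affymetrix mouse arrays, 3 in each of 5 groups taken from the sample titles. The values the authors deposited are probe set signals, a linear intensity made with MAS5 per the submitters' processing notes; its version and scaling target are not stated there. Per the labels' protocols, replicates 1 and 2 of every group were labelled with the Enzo kit and replicate 3 with the Ambion kit. Of 45037 probe sets without the 64 controls, 34945 carried 1 gene symbol, 932 carried several and for 9160 no symbol was listed; 34741 of those with 1 symbol matched a RefSeq gene by gene identifier. For each of 18193 genes the probe set with the highest mean signal was taken. Tests covered the 13160 genes whose signal reached the array median on 3 or more of the 15 arrays.

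The scale is log2(signal + 75.2), where 75.2 is the 20th percentile of all signals, so fold changes of low genes are understated. One limma fit (lmFit, eBayes with an intensity trend) over all 15 arrays held group and labelling kit, with 9 residual degrees of freedom. Two-sided p-values were adjusted by the Benjamini-Hochberg method over all genes tested, separately in each of 11 comparisons, with calls made below 0.05. With 3 arrays against 3, an exact two-sided permutation test cannot go below p = 0.1, and precision is limited by the number of arrays. Where the replicates came from is not given, so p-values measure only the spread between these arrays, which may be technical. In simulated data with 200 of 13160 genes changed, PL2-3 against media recovered 45% of 2-fold and 76% of 4-fold changes with 4 false calls, and non-additivity recovered 12% and 53% with 5. In the real data PL2-3 against media called 3415 genes, far more than 200. The adjusted p depends on how many genes change, so these rates need not hold for the real comparisons.

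The members and all lists were chosen with earlier results of these data known. Signals on every array are printed, within each role, for the called member with the largest change against media and for the member of highest mean signal, and for members called for non-additivity. From the other lists at most 4 called genes with the largest changes are named in a comparison. Alternatives covered scaling, pseudocount, filter, labelling term, replicate block, arrays used, eBayes trend, probe set choice, a 2-fold minimum and each array left out. Among the anti-IgM, CpG, PL2-3 and media arrays, same-numbered arrays deviated together in 18 of 18 pairs (correlation of deviations from group means 0.12 to 0.68). Between different numbers the correlation was over 0.1 in 8 of 36 pairs. These deviations were not adjusted for the labelling kit, and replicate 3 is the Ambion array of every group. Replicates 1 and 2 are the Enzo arrays, so an effect of the kit would move their deviations together as well. Pairing by number and a shared effect of the kit thus cannot be told apart from these correlations. With an anti-IgM+CpG array the correlation was over 0.1 in 0 of 12 same-numbered pairs. Added after the data were seen were fits without media replicate 3 and anti-IgM+CpG replicate 1, and with an actin-based labelling class without media replicate 3. R 4.3.3, limma 3.58.1, jsonlite 2.0.0, Python 3.11.15, pandas 2.3.3 and matplotlib 3.10.9 were used.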

Additional observations from a re-analysis of the deposited data

Results flagged for a closer look

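For Pold2, the accessory subunit of polymerase delta, the change with anti-IgM+CpG was smaller than the summed changes with anti-IgM and CpG, by -0.89 ± 0.18 on the log2 scale (limma interaction term, adjusted p = 0.019). The test of that difference is what singled it out. Its log2 changes against media were 1.81 with anti-IgM+CpG, 1.18 with anti-IgM and 1.52 with CpG, and all 9 of these arrays lay above all 3 media arrays. Over 31 alternatives the difference ranged from -1.15 to -0.76, it kept its call in 23, and its adjusted p ranged from 0.0039 to 0.17. The anti-IgM+CpG arrays differed from the others in Xist signal and, for 2 of the 3, in actin ratio for their stated kit, and the part of these differences in the result was not tested.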

How the results depend on the processing

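The 59 calls of replication genes were refitted under 32 alternatives where these allowed it (51 calls with the filter on all 15 arrays, 36 without the anti-IgM+CpG group), and the cause of each move was not tested. Counts below are of replication genes alone, without the share of all tested genes called in the same fit. Enzo arrays alone ended 32 calls. The actin-based labelling class without media replicate 3 kept 29 of 59, with 29 lost and 1 reversed in sign. A 2-fold minimum ended 26, no labelling term 22, leaving out media replicate 3 22, and the shift to one array median 22. Pold2 against media with all 4 stimuli, Prim2 with CpG, PL2-3 and anti-IgM+CpG, and Cdc45 with anti-IgM+CpG kept their calls wherever they could be fitted. PL2-3 against anti-IgM and against CpG gave 0 calls in each. The sign turned for E2f1 with anti-IgM+CpG, at 0.060 after a shift to one array median, and for Gins4 with anti-IgM+CpG, at -0.18 with the actin-based labelling class without media replicate 3.

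Quantile normalization gave 2 calls for PL2-3 against anti-IgM+CpG and 0 for anti-IgM+CpG against CpG. Arrays shifted to the same median gave 5 calls for anti-IgM against media, 4 for PL2-3 against anti-IgM+CpG, 12 for anti-IgM+CpG against anti-IgM and 0 for non-additivity, with medians of 0.13 for CpG and 0.54 for anti-IgM+CpG against media, -0.59 for PL2-3 against anti-IgM+CpG and 0.62 for anti-IgM+CpG against anti-IgM. No filter gave 6 calls for anti-IgM against media. The filter on all 15 arrays gave 0 for PL2-3 against anti-IgM+CpG and for anti-IgM+CpG against CpG. Without the labelling term, anti-IgM against media gave 5, and PL2-3 against anti-IgM+CpG, anti-IgM+CpG against each single agent and non-additivity gave 0. With labelling read from the actin ratio, PL2-3 against anti-IgM+CpG and anti-IgM+CpG against each single agent gave 0, with medians of -0.56 for anti-IgM+CpG against media, -0.040 for anti-IgM+CpG against anti-IgM and 0.20 for non-additivity. The same without media replicate 3 gave 4 calls for anti-IgM and 6 for anti-IgM+CpG against media, 2 for CpG against anti-IgM, 0 for the same 3 comparisons and a non-additivity median of 0.13.

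Enzo arrays alone gave 3, 6 and 5 calls for anti-IgM, CpG and PL2-3 against media, 0 for CpG against anti-IgM, 8 for PL2-3 against anti-IgM+CpG, 9 and 4 for anti-IgM+CpG against anti-IgM and CpG, and 0 for non-additivity. The compared groups alone gave 20 for CpG against media, 6 for CpG against anti-IgM, and 0 for PL2-3 against anti-IgM+CpG and for anti-IgM+CpG against each single agent. The 12 arrays without anti-IgM+CpG gave 17, 20 and 21 for anti-IgM, CpG and PL2-3 against media and 2 for CpG against anti-IgM. eBayes without a trend gave 4 for anti-IgM against media and 0 for anti-IgM+CpG against CpG and for non-additivity. The mean of all probe sets gave 0 for PL2-3 against anti-IgM+CpG, and every probe set on its own gave 3 there, 8 for anti-IgM+CpG against anti-IgM and 3 against CpG. A 2-fold minimum gave 7 for PL2-3 and 8 for anti-IgM+CpG against media, 0 for CpG against anti-IgM, 1 for anti-IgM+CpG against anti-IgM and 0 for non-additivity. Without media replicate 3 and anti-IgM+CpG replicate 1, there were 3 for CpG against anti-IgM, 5 for anti-IgM+CpG against anti-IgM with a median of -0.04, and a non-additivity median of 0.023.

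With each array left out in turn, calls against media ranged over 2 to 14 with anti-IgM, 8 to 17 with CpG, 7 to 19 with PL2-3 and 12 to 20 with anti-IgM+CpG, and medians over -0.49 to -0.22, -0.37 to 0.04, -0.51 to -0.13 and -0.39 to 0.090. Calls ranged over 0 to 1 for CpG against anti-IgM, 0 to 10 for PL2-3 against anti-IgM+CpG, 2 to 13 and 0 to 4 for anti-IgM+CpG against anti-IgM and CpG, and 0 to 10 for non-additivity, with medians of 0.18 to 0.23, -0.38 to 0.08, -0.090 to 0.52, -0.18 to 0.30 and 0.30 to 0.82. Anti-IgM against media gave 4, 5 and 2 calls without anti-IgM replicate 1, 2 and 3.

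With the replicate block, 8, 11, 14 and 16 genes were called against media with anti-IgM, CpG, PL2-3 and anti-IgM+CpG, and 55 of 59 calls were kept. Cdc6 and Dnmt1 with anti-IgM and E2f2 with CpG and with anti-IgM+CpG were lost. Fen1 passed with PL2-3 (0.81, adjusted p = 0.028), as did Orc6 for anti-IgM+CpG against anti-IgM (0.59, adjusted p = 0.046). The block changed no other call. 12 of 15 arrays correlated best with their own number, a hint from the data and not the design. Replicates 1 and 2 were also the Enzo arrays of every group, and replicate 3 the Ambion array. Low signals limit Cdc6, which reached the array median on 7 of 15 arrays. They also limit Cdc45, which was below it on all 3 anti-IgM+CpG arrays. Pole is limited too, with 71.15 on PL2-3 replicate 2, below the 75.2 added before log2.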
